A study of Mus musculus with 9 samples.

Results

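Genes of sterol and fatty acid synthesis that SREBP transcription factors drive, with the regulators of that pathway, were examined in murine microglia exposed to medium from glioma cells. The set was a list of 37 gene symbols, of which 33 were measured among 17097 genes. A gene was measured where at least 1 probe set of the array carries its symbol and no other, and the brightest such probe set over the 9 arrays stood for it. The 33 genes were 5 of 6 regulators and transport genes, 17 of 19 enzymes of the sterol arm and 11 of 12 enzymes of the fatty acid arm. Srebf1, Acat2, Pmvk and Scd2 were not analysed here. Values are log2 signals of probe sets as deposited, so a difference of 1 is 2-fold. The probe sets of Hmgcs1, Scd1, Elovl6 and Fads2 had mean levels below the median gene level of 4.34.

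Microglia came from cortices of C57BL/6J mice at P0-P2 and were shaken off a monolayer of mixed glia, so other glial cells can remain among them. There were 3 untreated samples (control), 3 kept for 6 h in glioma-conditioned medium (GCM) of LN18 cells and 3 kept for 6 h in GCM of U87-MG cells. Both lines are established human glioblastoma lines, and no transgene or further agent is named for any group. The 3 replicates of a group came from separate cortical cultures, RNA of each sample went on an array of its own (Affymetrix MG-430 PM strip), and the number of arrays limits the precision. The study's methods state that microglia were treated with fresh GCM, and the sources used here do not state whether untreated dishes also received new medium.

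SREBP proteins are made in the membrane of the endoplasmic reticulum, where Scap escorts them and Insig proteins hold them back while sterol is plentiful. When sterol falls they travel to the Golgi, are cut, and their released part enters the nucleus and switches on the enzymes of cholesterol synthesis and, mainly through the form encoded by Srebf1, those of fatty acid synthesis. In microglia the same genes supply membrane and lipid droplets, and loading of cells with sterol lowers the enzymes of cholesterol synthesis.

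Promoters are shown for the 5 genes that passed the test in a comparison described later and for Hmgcs1, a classical SREBP target. They are RefSeq sequences of build GRCm38.p6 that run from 250 bases before to 50 bases after the annotated start, 5′ to 3′ on the strand of the gene. Capitals mark matches on either strand to the sterol regulatory element TCACNCCAC, to the E-box CACGTG and to the NF-Y box CCAAT. The positions are chr5:28071162-28071461 on the plus strand for Insig1, chr5:125475623-125475922 on the plus strand for Aacs, chr1:78657575-78657874 on the plus strand for Acsl3, chr1:181842352-181842651 on the minus strand for Lbr, chr10:76531355-76531654 on the plus strand for Lss and chr13:119690101-119690400 on the plus strand for Hmgcs1.
Insig1: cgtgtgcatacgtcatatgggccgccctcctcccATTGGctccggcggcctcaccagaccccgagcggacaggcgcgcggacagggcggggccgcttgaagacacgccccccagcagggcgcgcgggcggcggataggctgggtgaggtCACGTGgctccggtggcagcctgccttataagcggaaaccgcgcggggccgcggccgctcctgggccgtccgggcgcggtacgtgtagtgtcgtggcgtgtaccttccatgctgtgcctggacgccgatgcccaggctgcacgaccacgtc
Aacs: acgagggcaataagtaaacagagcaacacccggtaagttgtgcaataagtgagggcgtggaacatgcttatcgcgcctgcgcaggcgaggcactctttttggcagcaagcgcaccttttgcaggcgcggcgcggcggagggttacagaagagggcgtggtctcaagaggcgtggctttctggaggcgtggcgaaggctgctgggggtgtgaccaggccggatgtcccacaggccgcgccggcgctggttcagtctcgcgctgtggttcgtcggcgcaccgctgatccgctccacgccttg
Acsl3: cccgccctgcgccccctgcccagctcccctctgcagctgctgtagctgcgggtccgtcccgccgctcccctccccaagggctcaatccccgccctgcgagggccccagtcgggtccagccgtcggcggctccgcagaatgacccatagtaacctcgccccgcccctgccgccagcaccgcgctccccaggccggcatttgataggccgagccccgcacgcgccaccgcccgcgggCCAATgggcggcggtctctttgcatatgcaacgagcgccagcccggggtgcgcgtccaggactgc
Lbr: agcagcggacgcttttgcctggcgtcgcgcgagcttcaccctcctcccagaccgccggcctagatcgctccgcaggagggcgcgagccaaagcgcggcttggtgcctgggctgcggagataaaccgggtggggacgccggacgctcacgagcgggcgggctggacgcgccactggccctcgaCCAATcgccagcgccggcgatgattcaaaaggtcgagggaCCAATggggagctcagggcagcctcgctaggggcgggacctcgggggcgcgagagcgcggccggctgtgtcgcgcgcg
Lss: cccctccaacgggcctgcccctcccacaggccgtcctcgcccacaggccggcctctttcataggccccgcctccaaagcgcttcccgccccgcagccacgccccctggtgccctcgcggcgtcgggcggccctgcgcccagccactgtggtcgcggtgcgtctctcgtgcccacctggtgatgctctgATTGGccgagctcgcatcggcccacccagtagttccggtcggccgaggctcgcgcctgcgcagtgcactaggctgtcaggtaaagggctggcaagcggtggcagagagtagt
Hmgcs1: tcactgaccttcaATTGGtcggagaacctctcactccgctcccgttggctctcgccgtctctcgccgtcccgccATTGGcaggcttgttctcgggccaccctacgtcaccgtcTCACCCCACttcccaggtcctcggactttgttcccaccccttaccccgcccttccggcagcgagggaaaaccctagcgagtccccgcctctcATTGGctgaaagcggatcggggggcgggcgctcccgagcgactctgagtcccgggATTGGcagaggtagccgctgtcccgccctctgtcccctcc

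Of the 33 measured genes, 27 had a promoter sequence in the RefSeq table, from which chromosome 18 was left out. The NF-Y box, whose factor acts beside SREBP at many sterol genes, occurred in promoters of 22 of these 27 genes, against 41.1% of 27025 genes with a promoter. It was found for 14 of 14 genes of the sterol arm, 5 of 9 of the fatty acid arm and 3 of 4 regulators. The exact sterol regulatory element was found in Hmgcs1 alone, and 1.44% of all genes hold it. The E-box occurred in 6 of 27 genes, Insig1 and Sc5d among them, against 8.09% of all genes. The Sp1 motif GGGCGG, which is not in capitals, occurred in 22 of 27 genes against 38.2% of all genes. These are matches of letters in 300 bases, not sites of binding, and the Aacs promoter held none of the 4 motifs.

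In GCM LN18, 4 of the 33 genes fell in limma (adjusted p under 0.05) and 0 rose, where 0.339% of all 17097 genes fell. The 4 were Insig1, a brake on SREBP transport whose gene SREBP itself drives, Aacs, which activates acetoacetate for lipid synthesis, Acsl3, a long-chain acyl-CoA synthetase of lipid droplets, and Lbr, a sterol reductase that also tethers chromatin to the inner nuclear membrane. In GCM U87-MG 0 of the 33 passed in limma, as did 0% of all genes in the lower direction, and 8 genes in all were higher. At an unadjusted p under 0.05, 18 of the 33 genes were lower in GCM LN18 (6.55% of all genes) and 20 were lower in GCM U87-MG (4.76% of all genes), and none of the 33 was higher in either. In bulk RNA, fewer cells of a type and less RNA per cell cannot be told apart. When the replicate number was not used as a block, 8 of the 33 were lower in GCM LN18 (2.64% of all genes) and 5 in GCM U87-MG (0.708% of all genes).

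The signs leaned one way across the set. The log2 difference from untreated microglia was below 0 for 29 of the 33 genes in GCM LN18, against 51.5% of all genes, and for 31 of the 33 in GCM U87-MG, against 51.3%. All 3 arrays of GCM LN18 lay below all 3 untreated arrays for 19 of the 33 genes, where 12.8% of all genes did so. The same held for 22 of the 33 in GCM U87-MG, where 10.3% did. Both held for 19 genes, 11 of 17 in the sterol arm, 4 of 11 in the fatty acid arm and 4 of 5 among the regulators, where 5.29% of all genes did. Both media were compared with the same untreated arrays, so these counts are not independent of each other.

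**Figure D1:**
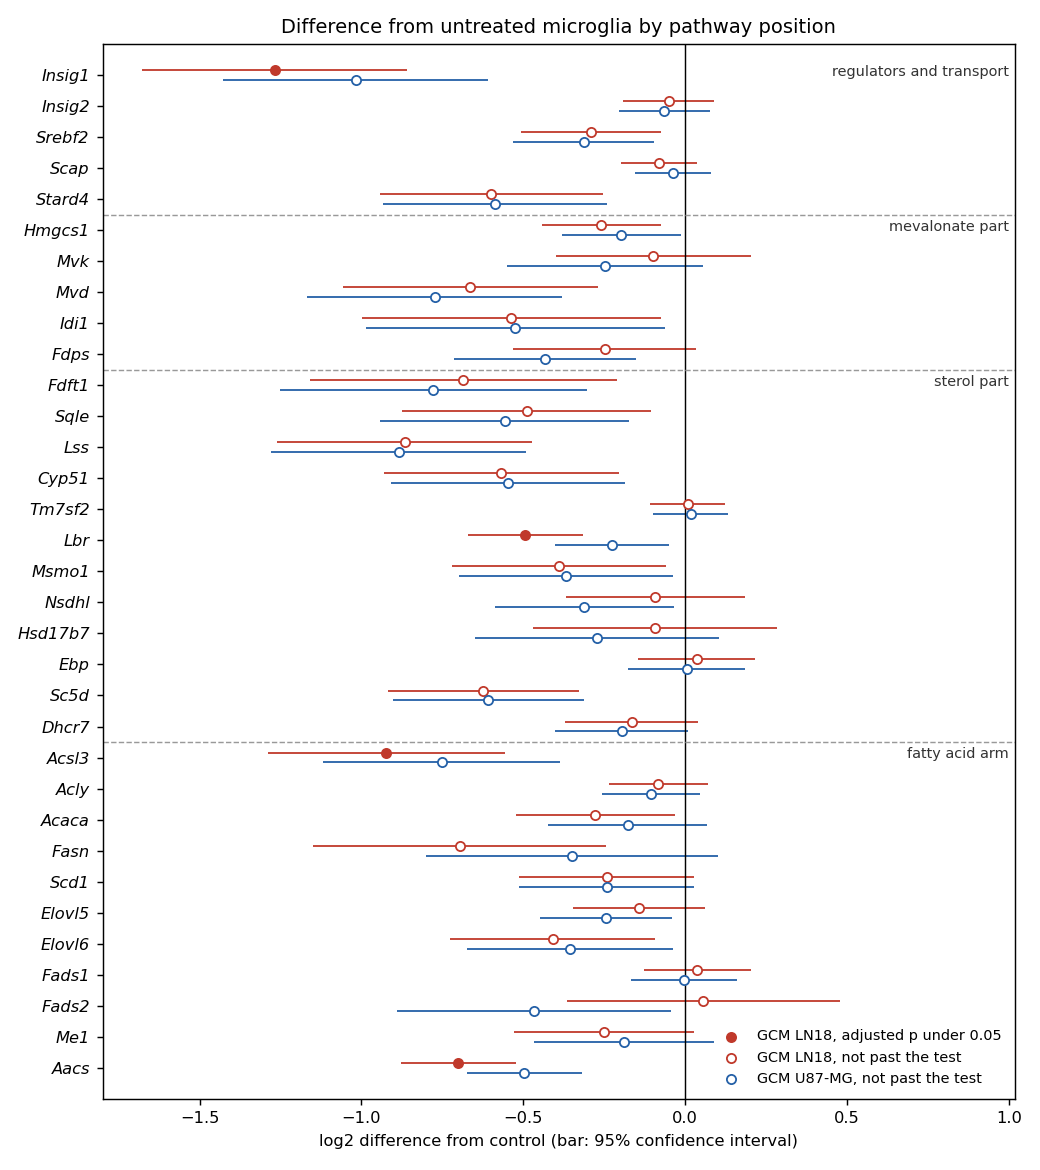
Log2 difference from untreated microglia (x axis) for the 33 measured genes (y axis, in pathway order, dashed lines between the parts), with GCM LN18 in red, GCM U87-MG in blue and 95% confidence intervals from limma as bars. Filled points passed at an adjusted p under 0.05, which Insig1, Lbr, Acsl3 and Aacs did in GCM LN18. Most points lie left of 0, with Insig1 farthest at -1.27 in GCM LN18, and at -1.02 in GCM U87-MG.

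Insig1 had the largest difference of the set. Its log2 signal (probe set 1454671_PM_at) was 7.63, 7.39 and 7.63 on untreated arrays of replicates 1, 2 and 3, 6.51, 6.08 and 6.25 in GCM LN18 and 6.22, 6.89 and 6.48 in GCM U87-MG. All 6 treated arrays lay below the 3 untreated ones, and the highest of them was replicate 2 of GCM U87-MG. The group levels were 7.55 ± 0.14, 6.28 ± 0.21 and 6.53 ± 0.34 (SD, n = 3 each), on values centred per replicate number before deposit, which also shrinks these SDs. In GCM LN18 Insig1 fell by 1.27, which is 2.41-fold, with a standard error of 0.18 and an adjusted p of 0.0269 from limma. In GCM U87-MG the difference was -1.02, with an adjusted p of 0.145 from limma, and of 0.027 without the replicate block. Counted from the most negative log2 difference of 17097 genes, its rank was 4 in GCM LN18 and was 6 in GCM U87-MG. The LN18 call was lost without control replicate 1 or 3 or any one GCM LN18 array, with adjusted p between 0.0582 and 0.184 in limma, and without GCM U87-MG replicate 2 Insig1 passed in GCM U87-MG (adjusted p = 0.0234 from limma).

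The other regulators moved less. Insig2, the second Insig protein, whose gene is not induced by SREBP as Insig1 is, gave log2 signals of 7.39, 7.47 and 7.37 untreated, 7.33, 7.33 and 7.42 in GCM LN18 and 7.39, 7.31 and 7.33 in GCM U87-MG. These overlapped between groups, and the differences were -0.05 (95% interval -0.19 to 0.09) and -0.06 (-0.20 to 0.08). Scap, the escort of SREBP, was at 7.48, 7.50 and 7.50 untreated, 7.44, 7.41 and 7.39 in GCM LN18 and 7.45, 7.46 and 7.47 in GCM U87-MG. Its treated arrays all lay below the untreated ones, by differences of only -0.08 and -0.04 that did not pass. Srebf2, which encodes the SREBP of sterol synthesis and is one of its own targets, was at 6.83, 6.87 and 6.66 untreated, 6.56, 6.34 and 6.59 in GCM LN18 and 6.37, 6.54 and 6.51 in GCM U87-MG. All treated arrays lay below the untreated ones, and the differences were -0.29 and -0.31 (adjusted p = 0.244 and 0.383 from limma). A second probe set of Srebf2 above the median gene level gave -0.03 and -0.01.

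Stard4, a soluble carrier of cholesterol between membranes and an SREBP target, was at 7.51, 7.47 and 7.42 untreated, 7.08, 6.61 and 6.91 in GCM LN18 and 6.62, 7.13 and 6.89 in GCM U87-MG. The lowest treated array was replicate 2 of GCM LN18, level with replicate 1 of GCM U87-MG, and no treated array reached the untreated ones. The differences were -0.60 and -0.59 (adjusted p = 0.131 and 0.285 from limma), and without the replicate block the first had 0.0391. A dimmer probe set of Stard4 differed more, by -0.89 in GCM LN18 with an adjusted p of 0.023 from limma over 45037 probe sets, and by -0.77 in GCM U87-MG.

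**Figure D2:**
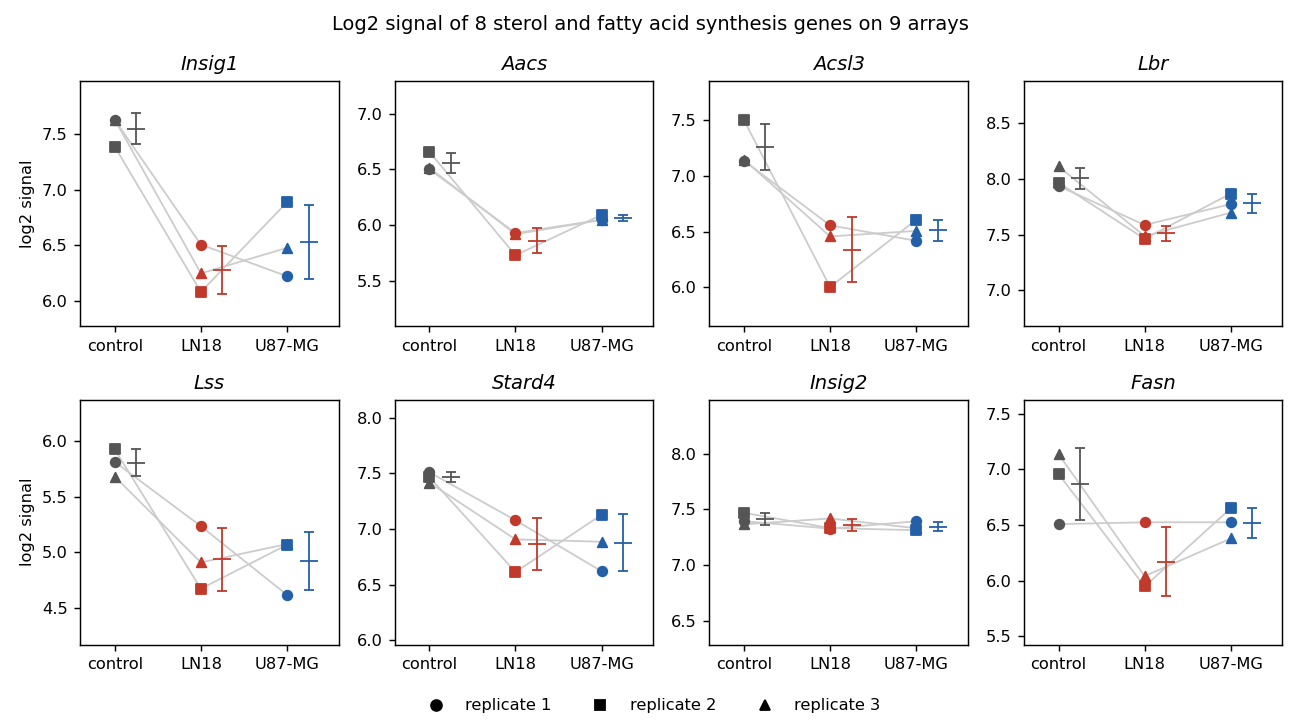
Log2 signal (y axis, each panel spanning the same range) of 8 genes on the 9 arrays, coloured grey (untreated), red (GCM LN18) and blue (GCM U87-MG), with lines joining arrays of a replicate number and the mean ± SD of 3 arrays beside the points. Insig1, Aacs, Acsl3, Lbr, Lss and Stard4 lie lower on all treated arrays than on untreated ones, Insig2 overlaps, and Fasn is flat in replicate 1 at about 6.52.

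The mevalonate part turns acetyl-CoA into the isoprenoid diphosphates from which sterols are built. Mvd, which makes isopentenyl diphosphate, was at 5.84, 5.76 and 5.34 untreated, 5.07, 4.79 and 5.10 in GCM LN18 and 4.60, 4.96 and 5.07 in GCM U87-MG. Idi1, the isomerase of the next step, was at 8.49, 8.23 and 8.12 untreated, 7.98, 7.58 and 7.67 in GCM LN18 and 7.31, 7.97 and 7.99 in GCM U87-MG. For both genes every treated array was below every untreated one, with replicate 1 of GCM U87-MG the lowest. The differences of Mvd were -0.66 and -0.77 (adjusted p = 0.143 and 0.212 from limma), and without the replicate block the first had an adjusted p of 0.0444 from limma. Those of Idi1 were -0.54 and -0.52 (adjusted p = 0.322 and 0.491 from limma). Idi1 passed in GCM LN18 when only those 2 groups were fitted (adjusted p = 0.0463 from limma) or when GCM U87-MG replicate 1 was left out (0.0348).

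Hmgcs1, a synthase early in the pathway, was measured by a dim probe set. It was at 2.46, 2.48 and 2.62 untreated, 2.38, 2.23 and 2.17 in GCM LN18 and 2.26, 2.39 and 2.31 in GCM U87-MG. Fdps, which makes farnesyl diphosphate, was at 8.72, 8.96 and 8.60 untreated, 8.58, 8.49 and 8.46 in GCM LN18 and 8.29, 8.15 and 8.54 in GCM U87-MG. Neither overlapped between treated and untreated arrays, but the closest arrays lay near each other. The differences were -0.26 and -0.20 for Hmgcs1 and -0.25 and -0.43 for Fdps, and none passed. The kinase Mvk overlapped between groups, with differences of -0.10 and -0.25.

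The sterol part makes squalene from farnesyl units, oxidizes it, closes its rings and trims the product to cholesterol. Fdft1, squalene synthase, was at 7.77, 7.34 and 7.14 untreated, 6.76, 6.55 and 6.89 in GCM LN18 and 6.26, 6.90 and 6.76 in GCM U87-MG. Sqle, the squalene epoxidase that limits the later pathway, was at 8.29, 8.20 and 8.01 untreated, 7.89, 7.45 and 7.70 in GCM LN18 and 7.27, 7.80 and 7.75 in GCM U87-MG. Treated arrays of both genes lay below all untreated ones, and replicate 1 of GCM U87-MG was again the lowest array. Fdft1 differed by -0.68 and -0.78, and Sqle by -0.49 and -0.56, without passing the test in either medium.

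Lss, lanosterol synthase, was at 5.81, 5.92 and 5.68 untreated, 5.24, 4.67 and 4.91 in GCM LN18 and 4.62, 5.07 and 5.07 in GCM U87-MG, with all treated arrays below the untreated ones. Its differences were the largest of the sterol arm in either medium, -0.87 in GCM LN18 (adjusted p = 0.0673 from limma) and -0.89 in GCM U87-MG (adjusted p = 0.174 from limma). Without the replicate block these were 0.0162 and 0.0358 from limma, and in GCM LN18 it also passed with array weights (0.0474) and without GCM U87-MG replicate 1 (0.0482). Over the mean of both media 4 of the 33 genes fell (0.304% of all genes), Lss by 0.88 (adjusted p = 0.0453 from limma), Insig1 by 1.14 (0.0257), Acsl3 by 0.84 (0.0411) and Aacs by 0.60 (0.0152). The mean used the same arrays as the comparisons of each medium, and leaving out 1 array at a time left between 0 genes of the set (without GCM U87-MG replicate 3) and 3. The Lss call was lost when any one array other than replicate 1 of GCM LN18 was left out, with adjusted p between 0.0518 and 0.16 in limma. It was also lost with the mean of probe sets (0.0582) and with array weights (0.0678). With 1 array left out, the call for the mean of both media was lost in 8 of 9 fits for Acsl3, 6 for Insig1 and 2 for Aacs. That of Acsl3 was also lost with array weights (0.0591), and that of Aacs with the mean of probe sets (0.0747). Without the replicate block the mean of both media gave 11 of the 33 (2.47% of all genes), which added Srebf2, Stard4, Mvd, Fdft1, Cyp51, Lbr and Sc5d.

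Cyp51, lanosterol demethylase, was at 8.12, 8.25 and 7.94 untreated, 7.79, 7.35 and 7.48 in GCM LN18 and 7.29, 7.60 and 7.78 in GCM U87-MG. Msmo1, a methyl oxidase of a later step, was at 9.67, 9.62 and 9.37 untreated, 9.31, 8.96 and 9.23 in GCM LN18 and 8.93, 9.33 and 9.30 in GCM U87-MG. Sc5d, a desaturase near the end of the pathway, was at 8.70, 8.84 and 8.58 untreated, 8.28, 7.89 and 8.07 in GCM LN18 and 7.91, 8.15 and 8.24 in GCM U87-MG. In all 3 genes the treated arrays lay below the untreated ones. The differences were -0.57 and -0.55 for Cyp51, -0.39 and -0.37 for Msmo1, and -0.62 and -0.61 for Sc5d. Of these, Sc5d came nearest to passing (adjusted p = 0.0765 and 0.198 from limma), and without the replicate block it had 0.0176 and 0.0441 from limma. With trend and robust estimation it had 0.0461 in GCM LN18.

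Lbr and Tm7sf2 catalyse the same reduction of the sterol ring. Lbr (probe set 1415829_PM_at) was at 7.94, 7.97 and 8.11 untreated, 7.59, 7.46 and 7.49 in GCM LN18 and 7.77, 7.87 and 7.70 in GCM U87-MG. The treated arrays lay below the untreated ones, those of GCM LN18 by more than those of GCM U87-MG, and GCM LN18 arrays did not overlap GCM U87-MG arrays. It fell by 0.49 in GCM LN18 (1.41-fold, standard error 0.08, adjusted p = 0.0366 from limma) and its difference in GCM U87-MG was -0.22 (adjusted p = 0.439 from limma). Tm7sf2 stayed between 5.22 and 5.26 on all 9 arrays, with differences of 0.01 (95% interval -0.11 to 0.12) and 0.02 (-0.10 to 0.13). The Lbr call was lost without any one GCM LN18 array, control replicate 2 or 3 or GCM U87-MG replicate 1, with adjusted p between 0.0651 and 0.230 in limma, and was at 0.0737 when only those 2 groups were fitted.

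The remaining enzymes of the sterol arm were Nsdhl, Hsd17b7, Ebp and Dhcr7, which strip methyl groups, shift a double bond and make the final reduction to cholesterol. Ebp differed by 0.04 and 0.0049. Nsdhl and Hsd17b7 differed by -0.09 and -0.09 in GCM LN18 and by -0.31 and -0.27 in GCM U87-MG, and Dhcr7 by -0.17 and -0.20. None of the 4 passed, and their groups overlapped in at least 1 medium.

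In the fatty acid arm Acsl3 and Aacs passed the test in GCM LN18. Acsl3 (probe set 1452771_PM_s_at) was at 7.14, 7.50 and 7.15 untreated, 6.56, 6.00 and 6.46 in GCM LN18 and 6.42, 6.61 and 6.51 in GCM U87-MG. Replicate 2 held both the highest untreated and the lowest treated array, and no treated array reached the untreated ones. Acsl3 fell by 0.92 in GCM LN18 (1.90-fold, standard error 0.16, adjusted p = 0.048 from limma), and its difference in GCM U87-MG was -0.75 (adjusted p = 0.200 from limma, 0.0459 without the replicate block). A second bright probe set of Acsl3 gave -0.90 and -0.64. The LN18 call was close to the threshold and was lost without any one of the 9 arrays, with adjusted p between 0.0589 and 0.137 in limma, and was at 0.122 when only those 2 groups were fitted.

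Aacs (probe set 1423797_PM_at) had the lowest adjusted p of the set. Its log2 signal was 6.50, 6.66 and 6.51 untreated, 5.93, 5.73 and 5.92 in GCM LN18 and 6.05, 6.09 and 6.04 in GCM U87-MG. The 3 groups were separate from each other on every array, with GCM LN18 lowest. Aacs fell by 0.70 in GCM LN18 (1.62-fold, standard error 0.08, adjusted p = 0.015 from limma), and its difference in GCM U87-MG was -0.50 (adjusted p = 0.105 from limma, 0.0117 without the replicate block). The LN18 call was lost without any one GCM LN18 array, with adjusted p between 0.0564 and 0.0863 in limma, and at 0.0705 when the 2 probe sets were averaged, the second of them dim at 3.54 and with a difference of 0.04.

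Elovl6, an elongase of saturated fatty acids, was at 4.36, 4.76 and 4.36 untreated, 4.27, 3.87 and 4.12 in GCM LN18 and 4.09, 4.09 and 4.23 in GCM U87-MG. Me1, the malic enzyme that supplies NADPH, was at 6.56, 6.22 and 6.21 untreated, 5.87, 6.21 and 6.16 in GCM LN18 and 6.13, 6.12 and 6.18 in GCM U87-MG. Both had all treated arrays below the untreated ones, though the closest arrays of Me1 were nearly level. The differences were -0.41 and -0.36 for Elovl6, -0.25 and -0.19 for Me1, and none passed. Me1 differed mainly in replicate 1, by -0.69 in GCM LN18 and by -0.43 in GCM U87-MG.

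The core enzymes of fatty acid synthesis did not pass in either medium. Fasn, fatty acid synthase, was at 6.51, 6.96 and 7.14 untreated, 6.52, 5.95 and 6.04 in GCM LN18 and 6.52, 6.65 and 6.38 in GCM U87-MG. Replicates 2 and 3 were lower on treated arrays, while the 3 arrays of replicate 1 lay within 0.02 of each other, and its 2 treated arrays carried the same value within 1e-06. Equal values on at least 2 of the 3 arrays of replicate 1 occurred in 5.96% of all genes, and Tm7sf2 was the other gene of the set with them. The Fasn difference was -0.70 in GCM LN18 (95% interval -1.15 to -0.24, adjusted p = 0.179 from limma), and without control replicate 1 it was -0.97 with an adjusted p of 0.0442 from limma. In GCM U87-MG it was -0.35 (-0.80 to 0.10).

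Acly, which makes cytosolic acetyl-CoA from citrate, differed by -0.08 and -0.11, and Acaca, which turns it into malonyl-CoA, by -0.28 and -0.18. The desaturase Scd1 and the elongase Elovl5 differed by -0.24 and -0.14 in GCM LN18 and by -0.24 and -0.24 in GCM U87-MG. The desaturases of polyunsaturated fatty acids were split, with Fads1 at 0.04 and -0.0027 and Fads2 at 0.06 and -0.47. Fads2 was dim and uneven, since its treated minus untreated difference ranged from 0.41 in replicate 1 of GCM LN18 to -1.15 in replicate 2 of GCM U87-MG.

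The arms were set side by side by their medians. In GCM LN18 the median log2 difference was -0.39 over the 17 genes of the sterol arm and -0.25 over the 11 of the fatty acid arm, where that of all genes was -0.0037. In GCM U87-MG the medians were -0.37 and -0.24, and that of all genes was -0.0026. The order of the arms turned without control replicate 1, to -0.30 and -0.32 in GCM LN18 and to -0.28 and -0.35 in GCM U87-MG, and without GCM U87-MG replicate 1, to -0.23 and -0.32 in that medium. With each array left out in turn the medians in GCM U87-MG ranged from -0.50 to -0.23 and from -0.35 to -0.16. Within the sterol arm the mevalonate part had -0.26 and -0.43 and the sterol part -0.44 and -0.34. Counting Insig1, Stard4 and Aacs as sterol genes gave -0.49 and -0.46 for that arm and -0.25 and -0.24 for the other. The medians are a description, since the genes of an arm share arrays and regulators and no test of the difference between arms was made.

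Arrays of a replicate number were then compared directly. The treated minus untreated difference was below 0 in all 6 pairs for 20 of the 33 genes (6.37% of all genes), 12 of 17 in the sterol arm, 4 of 11 in the fatty acid arm and 4 of 5 among the regulators. The sterol arm had medians of -0.34, -0.50 and -0.25 in replicates 1, 2 and 3 of GCM LN18 and -0.68, -0.40 and -0.16 in those of GCM U87-MG. The fatty acid arm had 0.02, -0.51 and -0.17 in GCM LN18 and -0.01, -0.50 and -0.22 in GCM U87-MG. In replicate 1 the sterol arm was thus lower while the fatty acid arm was near 0 in both media, and in replicate 2 both arms were lower. The pair of media in a replicate shares its untreated array. Leaving out replicate 2 of GCM LN18 moved the sterol median in that medium to -0.24.

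**Figure D3:**
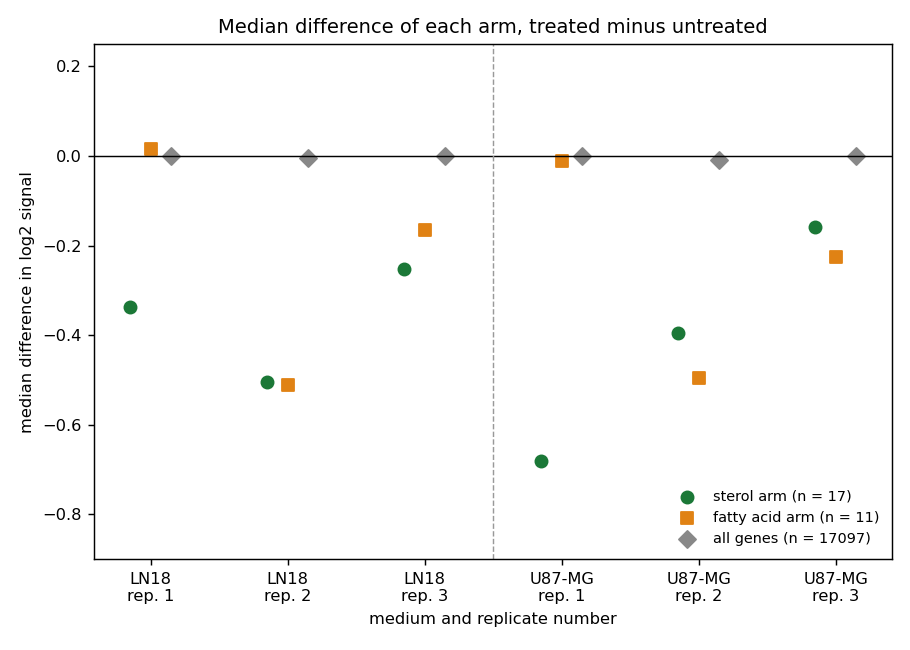
Median difference in log2 signal, treated minus untreated array of the same replicate number (y axis), for each medium and replicate number (x axis), over the sterol arm (green circles, 17 genes), the fatty acid arm (orange squares, 11 genes) and all 17097 genes (grey diamonds). The sterol arm lies below 0 in all 6 pairs, and the fatty acid arm is near 0 in replicate 1 of both media.

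**Figure D4:**
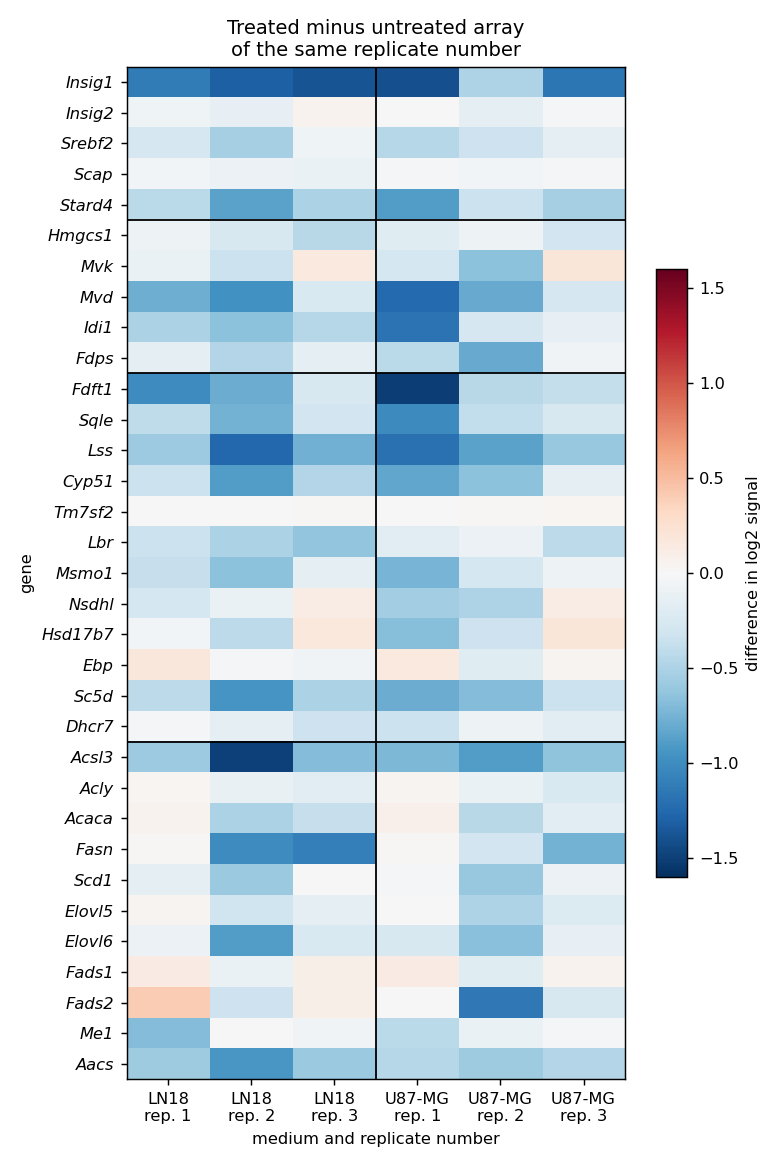
Difference in log2 signal (colour, blue lower and red higher on the treated array) between each treated array and the untreated array of its replicate number (x axis) for the 33 genes (y axis, black lines between regulators, mevalonate part, sterol part and fatty acid arm). Insig1, Lss, Acsl3, Sc5d and Stard4 are blue in all 6 columns, while Fasn is blue only in replicates 2 and 3.

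The media were compared with each other in the same fit. Of the 33 genes 0 differed at an adjusted p under 0.05 from limma, as did 0% of all genes. At an unadjusted p under 0.05 from limma, 3 of the 33 differed, as did 865 of all genes (5.06%). The 3, as GCM LN18 minus GCM U87-MG, were Lbr at -0.27 (95% interval -0.44 to -0.09), Aacs at -0.20 (-0.38 to -0.03) and Fads2 at 0.52 (0.10 to 0.95). For Insig1 the difference was -0.25, with an interval from -0.66 to 0.16, and for Lss it was 0.02, with an interval from -0.37 to 0.41.

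Neighbouring genes of the pathway were taken from 4 lists. Proteins that cut, escort or degrade SREBP and Insig (such as Mbtps1, the first SREBP protease) were measured for 16 of 19 genes, and 0 passed in either medium in limma. Among 20 of 24 other lipid genes under SREBP or LXR, 2 rose and 1 fell in GCM LN18, where 0.538% of all genes rose and 0.339% fell. Ch25h, which makes the hydroxysterol that holds SREBP back, went from 9.37 ± 0.30 untreated to 10.46 ± 0.15 (SD, n = 3 each) and rose by 1.09 (adjusted p = 0.0473 from limma). Its level in GCM U87-MG was 10.41 ± 0.29, a difference of 1.04 that did not pass (adjusted p = 0.161 from limma). Mlxipl, which encodes the carbohydrate-sensing factor ChREBP, rose by 0.82 in GCM LN18 (adjusted p = 0.0306 from limma), and Mid1ip1, an activator of acetyl-CoA carboxylase, fell by 0.51 (adjusted p = 0.0493 from limma). Each of these 3 calls was lost without any one GCM LN18 array, without control replicate 3 or without GCM U87-MG replicate 1, with adjusted p up to 0.275 in limma. That of Ch25h was also lost without control replicate 1 or GCM U87-MG replicate 3, with trend and robust estimation (0.0773) and with the mean of probe sets (0.0559). That of Mid1ip1 was lost without any one array but control replicate 1, with the mean of probe sets (0.0542), with quantile normalization (0.0514) and when only those 2 groups were fitted (0.132).

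Of 12 of 13 genes that use mevalonate products for prenylation, dolichol or coenzyme Q, 0 passed in either medium in limma. Of 15 of 17 genes of sterol handling and esters 1 rose in GCM LN18 (0.538% of all genes), Cav1, a sterol-binding coat protein of caveolae, by 1.36 (adjusted p = 0.0205 from limma). That call was lost without any one GCM LN18 array or control replicate 3, with adjusted p between 0.0523 and 0.125 in limma. Of the 63 measured genes of the 4 lists, 16 had an unadjusted p under 0.05 in limma in GCM LN18 (12.2% of all genes). Without the replicate block, further genes of the lists passed in that medium. Rabggtb (adjusted p = 0.0328 from limma), Acss2 (0.0445) and Lpin1 (0.0433) were lower, as 2.64% of all genes were. Tspo was higher (adjusted p = 0.024 from limma), as 443 of 17097 genes were. In GCM U87-MG 0 of the 63 passed in limma, and 8 had an unadjusted p under 0.05 (9.12% of all genes). Without the replicate block 4 of the 63 passed there, Ch25h (adjusted p = 0.0286 from limma), Mlxipl (0.0467) and Cav1 (0.0449) higher, as 0.807% of all genes were, and Acss2, an acetyl-CoA synthetase, lower by 0.60 (0.0175), as 0.708% were. The median log2 differences of the lists lay between -0.09 and 0.01 in either medium, against -0.39 and -0.37 for the sterol arm. The list of other SREBP or LXR genes pools opposite moves. In it Lpin1 differed by -0.51 and -0.55 and Acss2 by -0.36 and -0.60, not passing in either medium with the block. Ch25h at 1.09 and 1.04 and Mlxipl at 0.82 and 0.55 went the other way.

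Markers were read to see which cells the arrays held. Of 12 microglial markers 11 were measured and 9 lay above the median gene level, and their mean log2 level per array was 8.90 to 9.03 untreated, 9.30 to 9.34 in GCM LN18 and 9.16 to 9.33 in GCM U87-MG. Cx3cr1, the fractalkine receptor, rose by 0.97 in GCM LN18 (adjusted p = 0.00827 from limma, 0.0859 without GCM LN18 replicate 2) and by 0.78 in GCM U87-MG (adjusted p = 0.0499 from limma). The second call was lost in 7 of 9 fits with 1 array left out (adjusted p between 0.0607 and 0.36 from limma), all but those without replicate 1 of control or of GCM LN18, and with the filter on dim genes (0.0614) or only those 2 groups (0.191). Tmem119, a marker of resident microglia, rose by 0.91 in GCM LN18 (adjusted p = 0.039 from limma), and its level and that of P2ry12 lay below the median gene level. The Tmem119 call was lost in 7 of 9 fits with 1 array left out (adjusted p between 0.0502 and 0.228 from limma). It was also lost when only those 2 groups were fitted (0.0677). The mean of 10 astrocyte markers was 3.17 to 3.22 untreated, 3.16 to 3.19 in GCM LN18 and 3.18 to 3.21 in GCM U87-MG, with 1 of them, Aldoc, above the median gene level. Of 8 measured markers of the oligodendrocyte lineage 3 were above it, of 5 neuronal ones 0 and of 9 of fibroblasts and endothelium 1, and 0 of these passed in either medium in limma. Differences of the microglial markers were uneven, with a median of 0.25 after LN18 medium and of 0.19 after U87-MG medium. Ptprc (-0.04 and -0.0015) and Cd68 (-0.02 and -0.05) lay slightly below 0, and the other measured microglial markers lay above it. Cx3cr1 and Tmem119 alone among them passed. The mean of the microglial markers was higher where the lipid genes were lower, and their part in the result was not tested.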

How the data were processed

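Sample titles gave the groups. The list of 37 genes, its arms, the neighbouring gene lists and the markers were chosen with earlier results of these data known. The deposited table holds the authors' log2 probe set signals, already normalized (array medians 3.39 to 3.41, range 1.56 to 12.88). All arrays were run together per the study's methods, and limma is named in the submitters' notes. The study's methods name RMA for raw microarray data, in a passage on public arrays, and its legend on these arrays refers to the methods for pre-processing. Whether the centring of replicate means was part of it is not given in the sources used here.

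Of 45141 probe sets, 104 controls were left out. Of the other 45037, 28898 carry 1 symbol in the platform annotation (28689 updated through the gene identifier), 551 carry several and 15588 are unnamed here. The brightest probe set over 9 arrays stood for each of 17097 genes.

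The mean over the 3 arrays of replicate 1 equals that of replicates 2 and 3 within 1e-06 for 100% of probe sets, as it would after subtraction of replicate means, so the replicate number was used as a block (4 residual degrees of freedom, 6 without). The pairing rests on these equal means. The correlations of same-numbered arrays' deviations, -0.72 to -0.06, are forced low by the centring. Models were fitted to all 9 arrays with limma 3.58.1 in R 4.3.3, with Benjamini-Hochberg adjustment over all genes and calls at an adjusted p under 0.05. Intervals are 95%. Arms were described by medians. Genes got their value on every array if called, if a regulator, or if arrays of both media all lay on 1 side of the untreated ones. Fasn, which met none of these, was added after its values were seen. The fit was tested on simulated data.

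Alternatives were no block, a filter on dim genes, eBayes with trend and robust estimation, the mean of probe sets or every probe set, quantile normalization, median centring, array weights, only the groups compared, other arms, and each array left out. Motifs were searched in 32851 RefSeq promoters of 300 bases (GRCm38.p6), with those of chromosome 18 left out. No promoter was in that table for Fdps, Fdft1, Sqle, Fads1 and Scd1, and Stard4 had none here because it lies on chromosome 18.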

Additional observations from a re-analysis of the deposited data

How the results depend on the processing

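No log2 difference of the 33 genes or of the 6 named genes of other lists reversed where either value passed. Of 1935 alternative values 1779 kept their side of the threshold, 122 lost a call and 34 gained one. Most of these values belong to comparisons in which the gene had no call to lose, so the counts do not measure how stable the calls were. In GCM LN18 calls were lost in between 1 (Cx3cr1) and 9 (Acsl3) of 9 fits with 1 array left out. Without the replicate block, limma called 894 genes in GCM LN18 (150 with it), 259 in GCM U87-MG (8), 823 for the mean of both media (139) and 1 between the media (0), and 8, 5 and 11 of the 33 genes in the first 3 comparisons. In GCM LN18, array weights gave 265 genes and a fit of only the groups compared 89. In GCM U87-MG, trend and robust estimation gave 21 genes, the dim filter 3, the mean of probe sets 5, array weights 4 and only the groups compared 0. For the mean of both media, 2 of the 33 genes passed with the mean of probe sets and 2 with array weights. Leaving out 1 array gave 3 (without GCM LN18 replicate 2) to 179 genes and 0 to 4 of the 33 in GCM LN18, 0 to 10 genes and 0 to 1 of the 33 in GCM U87-MG, and 10 (without GCM U87-MG replicate 3) to 154 genes and 0 to 3 of the 33 for the mean. The sterol arm's median in GCM LN18 then ranged from -0.49 to -0.24 and the fatty acid arm's from -0.34 to -0.15. The mean of probe sets gave -0.27 and -0.15, and the cause was not tested. With 3 arrays a group, differences near 0.5 on the log2 scale passed for some genes and not for others.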

Other observations

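Other probe sets of the same genes gave a second reading of their levels. Of the 33 genes 20 had several probe sets, and 14 had 17 others whose mean lay above the median gene level. All 17 had the sign of the chosen probe set in GCM LN18, and 16 did in GCM U87-MG, the exception being a dim one of Fads1 (0.12). The second probe set of Idi1 gave -0.55 and -0.48 beside -0.54 and -0.52 for the chosen one, and that of Elovl5 -0.16 and -0.24 beside -0.14 and -0.24. Sizes differed more for Sc5d, whose other probe sets gave -0.86 and -0.90 and, for the dimmer, -0.20 and -0.12. Its chosen one gave -0.62 and -0.61. The 2 other probe sets of Insig2 gave -0.04 and -0.03 in GCM LN18. Probe sets of a gene share RNA and array, so they are not further replicates. All 45037 probe sets were also fitted in limma, 61 of them of the 33 genes. In GCM LN18 4 of the 61 passed (Aacs, Insig1, Lbr and 1 of Stard4), where 215 of the 45037 passed. The call of Acsl3 was lost there, with adjusted p of 0.0576 and 0.0577 from limma for its 2 bright probe sets. In GCM U87-MG 0 of the 61 passed, where 6 of the 45037 did.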
